A study of Mus musculus with 6 samples.

Results

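The conjugation enzymes of phase II metabolism were compared between primary mouse hepatocytes depleted of RetSat by siRNA (siRetSat) and hepatocytes transfected with control siRNA (siControl). Genes were taken as members by their symbol in the array's annotation, which had to begin with Ugt1, Ugt2, Ugt3, Sult, Gsta, Gstm, Gstp, Gstt, Gsto, Gstk or Mgst. The symbol alone decided membership, but these families were chosen with earlier results of these data known. This gave 47 of the 19938 genes tested. They comprised 8 Ugt2, 2 Ugt3, 16 Sult, 2 Gsta, 7 Gstm, 2 Gstp, 4 Gstt, 2 Gsto, 1 Gstk and 3 Mgst genes. The Ugt1 family had no member, because its probe set carries 8 gene symbols and no single gene could be read from it. The hepatocytes came from a wild type male C57BL/6J mouse aged 10 weeks by the series' text. Cells of both groups were seeded in medium with 25 mM glucose, transfected overnight with 1 nmol of siRNA and lysed 48 h after the medium change of the next morning. Each group had 3 arrays (Affymetrix Mouse Gene 1.0 ST), one per transfection, so p-values measure the spread between transfections and not between mice. The samples hold no second siRNA against RetSat, and effects of the siRNA on other targets cannot be told apart from the depletion itself.

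Phase II enzymes attach a polar group to drugs, hormones, bile acids and reactive metabolites, which makes these compounds more soluble and easier to export. UDP-glucuronosyltransferases (Ugt) sit in the endoplasmic reticulum and transfer glucuronic acid from UDP-glucuronate. Cytosolic sulfotransferases (Sult) transfer a sulfonate group from PAPS. Glutathione transferases (Gst and the membrane-bound Mgst) join electrophiles to glutathione. The liver is the main site of these reactions, and hepatocytes are known to lose part of this programme in culture.

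All values below are normalized log2 intensities per gene as the authors deposited them, and a difference of 1 is a doubling of the signal. Levels of different genes cannot be set against each other on this array, since each probe set binds with its own strength. The targeted gene Retsat had 4.62, 4.83 and 4.81 on the siRetSat arrays, against 6.80, 7.04 and 7.01 on the siControl arrays, a difference of -2.20 (standard error 0.105, limma adjusted p = 0.000112). Array medians lay between 4.29 and 4.50. Albumin, the defining hepatocyte product, was at 12.99 to 13.10 in siRetSat and 12.90 to 13.06 in siControl. The summed signal of 9 measured hepatocyte markers, on the log2 scale, was 14.09 to 14.22 in siRetSat and 14.11 to 14.26 in siControl, a sum in which albumin weighs most. Of the 9 markers 2 fell, Cps1 (log2 fold change -0.82) and Tat (-0.72), and the groups did not overlap in Tdo2 (-0.48, limma adjusted p = 0.0862) and Apob (-0.36, limma adjusted p = 0.122) either. The median over the 9 was -0.12. Of all genes 1.66% fell at a limma adjusted p under 0.05, and 10.1% lay lower without overlap. Genes with a mean below the 40th percentile of all genes (log2 4.33) are called dim here. Of the 47 members 17 were dim, 13 of them sulfotransferases, and 30 were not. Of the genes that stand for the 3 enzyme classes, Gstm1 and Ugt2b1 were well above this level, whereas the phenol sulfotransferase Sult1a1 lay close to it, at 4.63 to 5.01 in siRetSat and 4.75 to 5.48 in siControl.

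RetSat depletion was accompanied by opposite changes among the conjugation enzymes. The sulfotransferases Sult1d1 and Sult1c2 and the glutathione transferases Gstt3, Gstt2 and Gstm6 were higher in siRetSat, and the glucuronosyltransferase Ugt2b1 was lower. These 6 were the members past an adjusted p of 0.05 by limma with Benjamini-Hochberg adjustment over all genes, 5 of 47 higher and 1 of 47 lower, and 41 did not pass. That is 12.8% of the members, against 3.56% of all genes (1.91% higher and 1.66% lower). At the study's own cutoffs, an unadjusted p under 0.05 and a ratio of the higher to the lower group of at least 25% above 1, 12 members passed, or 25.5%, against 9.05% of all genes. Of these 12, 7 were higher (4.47% of all genes) and 5 lower (4.58% of all genes), the lower ones all of the Ugt2b subfamily. With arrays centred on their medians 3 members passed the adjusted threshold, all higher, and with the quantile normalization repeated 9 passed, 7 higher and 2 lower. The groups did not overlap in 13 members, or 27.7%, against 19.5% of all genes. Of these 13, 8 were higher (9.33% of all genes) and 5 lower (10.1% of all genes). The median log2 fold change was 0.06 over the 47 members and 0.00 over all genes. In bulk RNA, fewer cells of a type and less RNA per cell cannot be told apart.

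**Figure D1:**
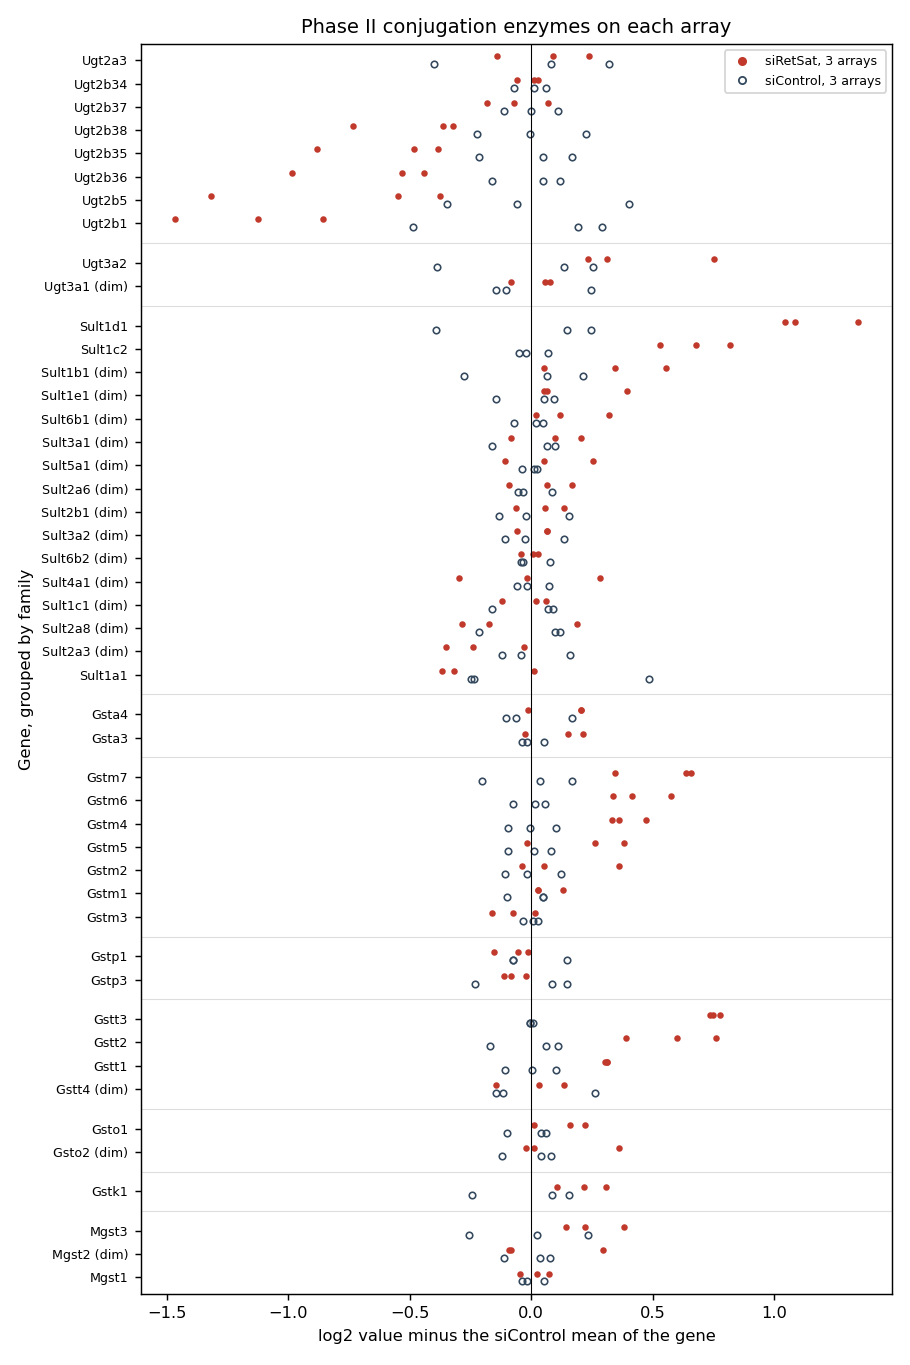
Deposited log2 intensity of the 47 members on each array, shown as the difference from the gene's mean over the siControl arrays, with 1 row per gene grouped by family, filled points for the siRetSat arrays and open points just under them for the siControl arrays. Sult1d1 and Gstt3 stand above 0 on all 3 siRetSat arrays and Ugt2b1 below 0 on all 3.

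The calls differed in how far they rested on single arrays. Gstt3 and Sult1d1 passed in all 6 fits that left out 1 array, with adjusted p between 0.00596 and 0.0255 for Gstt3 and between 0.0130 and 0.0491 for Sult1d1. Sult1c2 passed in 3 of the 6 and was lost without array 2 of siRetSat and without array 2 or array 3 of siControl, with adjusted p of up to 0.0637. Ugt2b1 passed without array 3 of siRetSat and without array 1 of siControl but in none of the other 4 fits, with adjusted p between 0.0130 and 0.151. Gstt2 and Gstm6 passed only without array 1 of siRetSat, and their adjusted p reached 0.191 and 0.198. The sign of these 6 differences was the same in every fit run.

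Among the glucuronosyltransferases, 5 of the 7 Ugt2b genes had every siRetSat array below every siControl array, and of these Ugt2b1 passed the adjusted threshold. Of all genes 10.1% lay lower without overlap. These enzymes glucuronidate steroids, bile acids and phenolic drugs in the liver. Ugt2b1 had 6.16, 6.50 and 6.77 in siRetSat, against 7.14, 7.92 and 7.82 in siControl. All siRetSat arrays lay below all siControl arrays, and the means were 6.48 ± 0.31 and 7.63 ± 0.42 (SD, n = 3 arrays each). The log2 fold change was -1.15 (standard error 0.225, 95% interval -1.67 to -0.63, adjusted p = 0.0323 from limma), which leaves 45.1% of the siControl signal.

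Besides Ugt2b1, 4 Ugt2b genes passed the study's cutoffs by limma. None of these 4 reached the adjusted threshold in the fit of the groups alone. With a further term for the replicate number, all 4 did (limma adjusted p = 0.00534 to 0.0139). Whether same-numbered arrays belong together is not given in the labels. Ugt2b36 had 10.34, 10.79 and 10.88 in siRetSat, against 11.16, 11.37 and 11.44 in siControl (log2 fold change -0.65, standard error 0.152, adjusted p = 0.0617 from limma). Ugt2b35 had 9.61, 10.01 and 10.11 in siRetSat, against 10.28, 10.54 and 10.66 in siControl (log2 fold change -0.58, adjusted p = 0.0949 from limma). Ugt2b5 had 8.59, 9.36 and 9.53 in siRetSat, against 9.56, 9.85 and 10.31 in siControl (log2 fold change -0.75, standard error 0.265, adjusted p = 0.226 from limma). In these 3 genes the groups did not overlap, and array 1 was the lowest of its group in both siRetSat and siControl. The same held for Ugt2b38, which had 7.59, 7.96 and 8.00 in siRetSat, against 8.10, 8.32 and 8.55 in siControl (log2 fold change -0.47, adjusted p = 0.169 from limma).

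Ugt2b34, Ugt2b37 and Ugt2a3 gave values that overlapped between the groups. Ugt2b34 had 11.66, 11.57 and 11.64 in siRetSat and 11.56, 11.69 and 11.64 in siControl, a difference of -0.01 on the log2 scale with a 95% interval of -0.20 to 0.19. Ugt2b37 differed by -0.06 (interval -0.30 to 0.18) and Ugt2a3 by 0.06 (interval -0.36 to 0.49). These intervals leave out a change as large as that of Ugt2b1. Over the 8 Ugt2 genes the median log2 fold change was -0.53. The paralogs are close in sequence and may share probes, so their values are not independent of each other.

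The Ugt3 family uses other sugars than glucuronic acid, as shown for the human enzymes. Ugt3a2 had 6.15, 6.23 and 6.67 in siRetSat and 5.53, 6.05 and 6.17 in siControl, and the groups overlapped (log2 fold change 0.43, adjusted p = 0.362 from limma). Ugt3a1 was dim, with a difference of 0.02.

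**Figure D2:**
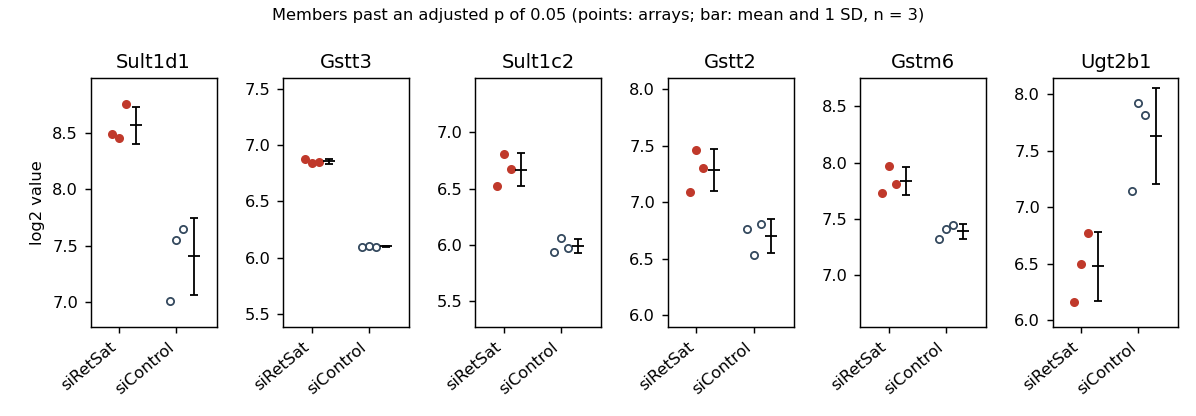
Log2 intensity on each array for the members past an adjusted p of 0.05, with siRetSat left of siControl in each panel, one point per array, and beside the points the group mean with a line of 1 SD to each side (n = 3 arrays). Ugt2b1 is the only one of the 6 whose siRetSat points lie below its siControl points.

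Genes of the Ugt2 and Sult1 families are neighbours in the mouse genome. In the order of RefSeq's GRCm38.p6 annotation of chromosome 5, Ugt2b34, Ugt2b1, Ugt2b35, Ugt2b36, Ugt2b5, Ugt2b37, Ugt2a3 and Ugt2b38 are followed by Sult1b1, Sult1d1 and Sult1e1, with only Ugt2a1 and Ugt2a2 as further coding genes between them. The most negative and the most positive difference of all 47 members, -1.15 for Ugt2b1 and 1.16 for Sult1d1, thus lay within this run of 11 members. Ugt2b34 next to Ugt2b1 differed by -0.01, and Sult1b1 and Sult1e1 on either side of Sult1d1 were dim, with differences of 0.32 for Sult1b1 (limma adjusted p = 0.453) and 0.17 for Sult1e1 (limma adjusted p = 0.663). The Gstm genes form a run of their own, in the order Gstm5, Gstm7, Gstm6, Gstm3, Gstm2, Gstm1 and Gstm4, and the Gstt genes another, in the order Gstt3, Gstt1, Gstt4 and Gstt2, with no other coding gene inside either run.

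**Figure D3:**
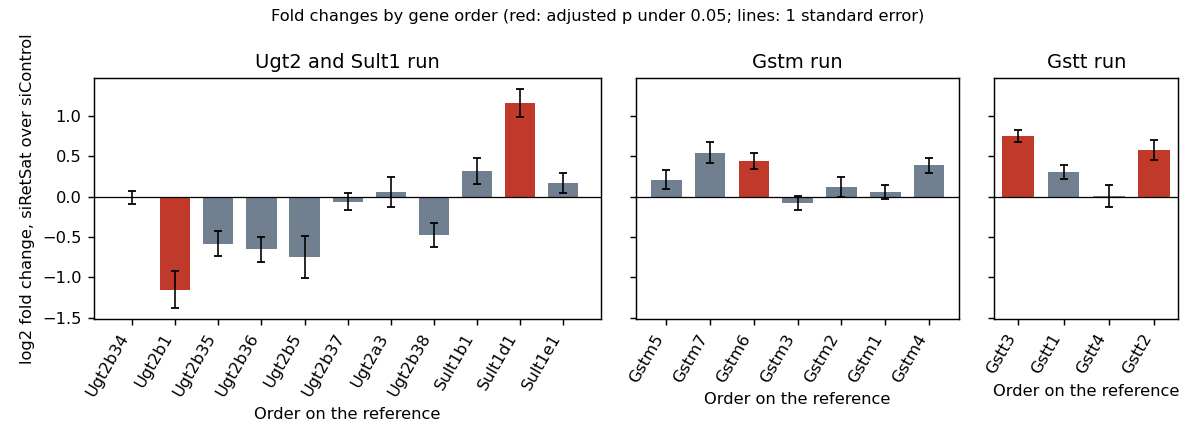
Log2 fold change, siRetSat over siControl, with its standard error for the members of the 3 runs of neighbouring genes, in the order of the RefSeq annotation and not to distance. In the Ugt2 and Sult1 run the values span -1.15 for Ugt2b1 to 1.16 for Sult1d1.

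The sequence before the start of transcription is given for Ugt2b1 and Sult1d1, whose differences were the most negative and the most positive. It is also given for the close relatives Ugt2b36, Ugt2b38 and Ugt2b37. By limma's p the first pair of these passed the study's cutoffs and the last did not. Each is the 250 bases before the start in RefSeq's GRCm38.p6, 5′ to 3′ on the minus strand. AGGTCA, a core element bound by many nuclear receptors, is in capitals and was chosen for display after the motif search described next.
Ugt2b1 (chr5:86926504-86926753): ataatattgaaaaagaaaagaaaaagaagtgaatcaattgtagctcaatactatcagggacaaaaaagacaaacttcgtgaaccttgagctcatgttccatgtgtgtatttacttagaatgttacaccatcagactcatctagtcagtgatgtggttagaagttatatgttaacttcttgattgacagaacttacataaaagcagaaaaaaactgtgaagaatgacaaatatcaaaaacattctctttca
Ugt2b36 (chr5:87092556-87092805): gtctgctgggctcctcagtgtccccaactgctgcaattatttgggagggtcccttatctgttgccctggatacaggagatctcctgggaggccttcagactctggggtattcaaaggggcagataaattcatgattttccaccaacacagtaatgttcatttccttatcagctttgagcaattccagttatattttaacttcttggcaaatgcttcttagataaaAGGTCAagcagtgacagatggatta
Ugt2b38 (chr5:87424204-87424453): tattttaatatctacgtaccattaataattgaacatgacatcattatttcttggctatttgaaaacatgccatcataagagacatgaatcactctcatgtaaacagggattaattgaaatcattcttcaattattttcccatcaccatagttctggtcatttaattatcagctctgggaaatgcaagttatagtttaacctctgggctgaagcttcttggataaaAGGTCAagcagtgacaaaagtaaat
Ugt2b37 (chr5:87254789-87255038): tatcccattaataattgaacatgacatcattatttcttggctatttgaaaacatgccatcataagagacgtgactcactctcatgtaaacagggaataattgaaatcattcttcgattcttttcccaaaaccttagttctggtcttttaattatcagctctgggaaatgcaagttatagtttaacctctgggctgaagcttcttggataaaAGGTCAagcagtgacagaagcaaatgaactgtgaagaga
Sult1d1 (chr5:87569007-87569256): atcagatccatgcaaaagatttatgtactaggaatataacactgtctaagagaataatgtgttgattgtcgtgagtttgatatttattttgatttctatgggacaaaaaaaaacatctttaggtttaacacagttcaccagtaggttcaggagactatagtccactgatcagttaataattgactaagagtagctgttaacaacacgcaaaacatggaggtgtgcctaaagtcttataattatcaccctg

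A set of 5 motifs was searched on both strands of these windows, and 43 of the 47 members had a window, 54 windows in all. AGGTCA was in 5 of the 7 Ugt2b windows, those of Ugt2b35, Ugt2b36, Ugt2b5, Ugt2b37 and Ugt2b38, and in 14.0% of all 32851 windows of the same length. Over all members it was in 9 of 54 windows, or 16.7%, the other 4 being those of Gstk1, Sult1b1, Sult1e1 and Sult2a8. In Ugt2b36 and Ugt2b38 it covered bases 25 to 20 before the start and in Ugt2b37 bases 39 to 34. Ugt2b1 and Ugt2b34 had no match. The 250 bases of Ugt2b37 and Ugt2b38 were identical at 224 positions after global alignment, or 89.6%, while their log2 fold changes were -0.06 (interval -0.30 to 0.18) and -0.47 (interval -0.82 to -0.13). The difference between the 2 genes was not tested. Ugt2b1 was identical to the other 6 Ugt2b windows at 43.2% to 50.4% of positions. The windows of Ugt2b5, Ugt2b37 and Ugt2b38 were identical to each other at 79.6% to 89.6%, so their AGGTCA matches are not independent.

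The other motifs, searched only in the letters given here, were in none of the 7 Ugt2b windows. Variants of these elements were not searched, so a window without a match may still hold a site. GTTAAT, a core element bound by HNF1, was in 8 of the 54 member windows, or 14.8%, including that of Sult1d1, and in 6.43% of all windows. TGACNNNGC, the core of the antioxidant response element, was in 4 member windows, or 7.41%, those of Gsta3, Gstm5, Gstm7 and Mgst1, and in 10.2% of all windows. The reverse of AGGTCA begins with the same TGAC, so the 2 motifs can overlap. GCGTG, the core bound by the aryl hydrocarbon receptor, was in 9 member windows, or 16.7%, including that of Sult1d1, against 28.2% of all windows, and TATAAA, the TATA box, in 10 member windows, or 18.5%, against 12.4% of all windows. A match is a description of the letters and no measure of binding.

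Among the 16 sulfotransferases, 2 rose (12.5%, against 1.91% of all genes) and none fell, and 13 were dim. Sult1d1, which sulfonates dopamine and other catecholamines, had 8.49, 8.45 and 8.75 in siRetSat, against 7.01, 7.55 and 7.65 in siControl. The siRetSat arrays all lay above the siControl arrays, with means of 8.56 ± 0.16 and 7.40 ± 0.34 (SD, n = 3 arrays each). The log2 fold change was 1.16 (standard error 0.173, 95% interval 0.76 to 1.56, adjusted p = 0.0115 from limma), or 2.23-fold. Sult1c2, an enzyme for phenols, had 6.52, 6.81 and 6.67 in siRetSat, against 5.94, 6.06 and 5.97 in siControl (log2 fold change 0.68, standard error 0.101, adjusted p = 0.0115 from limma), or 1.60-fold.

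Sult1a1 had 4.63, 4.68 and 5.01 in siRetSat and 4.76, 5.48 and 4.75 in siControl. The groups overlapped, and array 2 of siControl lay above the other 5. Its difference was -0.22 with an interval of -0.69 to 0.25 (adjusted p = 0.768 from limma), and it became 0.02 without that array. Sult1b1, which sulfonates thyroid hormones and phenols, had 3.99, 4.49 and 4.28 in siRetSat and 3.66, 4.00 and 4.15 in siControl. The oestrogen sulfotransferase Sult1e1, the hydroxysteroid enzymes Sult2a3, Sult2a6, Sult2a8 and Sult2b1, and Sult1c1, Sult3a1, Sult3a2, Sult4a1, Sult5a1, Sult6b1 and Sult6b2 were all dim and differed by -0.21 to 0.17. At such low signals a change in these genes was not readily detectable.

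Of the 4 theta-class glutathione transferases 2 rose (1.91% of all genes did), and Gstt1 was higher without passing the test. Theta enzymes act on small halogenated compounds and organic hydroperoxides. Gstt3 had 6.88, 6.84 and 6.85 in siRetSat, against 6.10, 6.11 and 6.10 in siControl. The arrays within a group differed by at most a few hundredths, and the groups were far apart (log2 fold change 0.75, standard error 0.0784, 95% interval 0.57 to 0.93, adjusted p = 0.00253 from limma), or 1.69-fold. Gstt2 had 7.09, 7.46 and 7.30 in siRetSat, against 6.76, 6.53 and 6.81 in siControl (log2 fold change 0.58, standard error 0.124, adjusted p = 0.0441 from limma), or 1.50-fold. Gstt1 had 9.10, 9.10 and 9.09 in siRetSat and 8.79, 8.68 and 8.89 in siControl. Its groups did not overlap, yet its fold of 1.24 stayed under the study's cutoff (log2 fold change 0.31, standard error 0.0887, adjusted p = 0.124 from limma). Gstt4, which lies between Gstt1 and Gstt2, was dim and differed by 0.01.

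Within the mu class 1 of 7 genes rose (1.91% of all genes did), namely Gstm6. It had 7.73, 7.97 and 7.81 in siRetSat, against 7.32, 7.41 and 7.45 in siControl (log2 fold change 0.44, standard error 0.0961, adjusted p = 0.0472 from limma), or 1.36-fold. Gstm7 had 6.34, 6.65 and 6.63 in siRetSat, against 5.79, 6.03 and 6.16 in siControl (log2 fold change 0.55, standard error 0.129, adjusted p = 0.0649 from limma). Gstm4 had 8.55, 8.58 and 8.69 in siRetSat, against 8.21, 8.32 and 8.12 in siControl (log2 fold change 0.39, standard error 0.0927, adjusted p = 0.0658 from limma). In these 3 genes every siRetSat array lay above every siControl array, as in 9.33% of all genes. Gstm1, a main hepatic mu enzyme, had 11.43, 11.53 and 11.43 in siRetSat and 11.30, 11.45 and 11.45 in siControl, a difference of 0.06 with an interval of -0.14 to 0.27. Gstm3 differed by -0.07 (interval -0.27 to 0.13), Gstm2 by 0.13 and Gstm5 by 0.21, all with overlapping groups. Gstm6 and Gstm7 adjoin each other and the mu genes are close paralogs, so probes may be shared between them.

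The remaining glutathione transferases differed little between the groups. Gsta3, which detoxifies the epoxide of aflatoxin in mice, had 10.06, 10.30 and 10.24 in siRetSat and 10.14, 10.07 and 10.05 in siControl (log2 fold change 0.11, interval -0.10 to 0.33). Gsta4, which clears the lipid peroxidation product 4-hydroxynonenal, differed by 0.13 (interval -0.12 to 0.39). Gstp1, the pi-class enzyme, had 12.61, 12.51 and 12.65 in siRetSat and 12.81, 12.59 and 12.59 in siControl (log2 fold change -0.07, interval -0.30 to 0.15). Gstp3 also differed by -0.07. Gsto1, an omega enzyme that reduces dehydroascorbate, differed by 0.13, and Gsto2 was dim with 0.12. The mitochondrial and peroxisomal Gstk1 had 7.17, 7.06 and 7.26 in siRetSat and 6.71, 7.04 and 7.11 in siControl, a difference of 0.21. Of the microsomal enzymes, which also reduce lipid hydroperoxides or make leukotriene C4, Mgst1 differed by 0.02 (interval -0.18 to 0.21), Mgst3 by 0.25 (interval -0.06 to 0.56) and the dim Mgst2 by 0.04. In the Ugt3, Gsta, Gstp, Gsto, Gstk and Mgst families no member passed an adjusted p of 0.05 by limma, and none had an unadjusted p under 0.05 by limma or by the two-tailed test of the study's methods. The median log2 fold change was 0.45 over the 4 Gstt genes, 0.21 over the 7 Gstm genes and 0.13 over all 18 Gst genes.

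Around the enzymes themselves, 126 genes in 9 lists were followed, of which 117 were measured. The lists were chosen with earlier results of these data known, so their share of calls is no independent test. At an adjusted p of 0.05 by limma 7 of the 117 rose, 2 fell and 108 did not pass, so that 7.69% were called (5.98% higher and 1.71% lower), against 3.56% of all genes (1.91% higher and 1.66% lower). The medians of the lists lay between -0.04 for transcription factors and 0.14 for PAPS supply, against 0.00 over all genes. Supply of the donors showed few calls. Of all 19938 genes, 2892 had an unadjusted p under 0.05 by limma, which is the measure for the counts at that level below. Among 6 genes that make or carry UDP-glucuronate none passed, while 2 had an unadjusted p under 0.05, and the smallest p belonged to Ugp2, the UDP-glucose pyrophosphorylase (log2 fold change -0.28, adjusted p = 0.244 from limma). Among 8 genes of PAPS supply none passed, while 4 had an unadjusted p under 0.05. The PAPS synthase Papss2 had 7.14, 7.30 and 7.47 in siRetSat, against 6.64, 6.96 and 6.77 in siControl (log2 fold change 0.51, adjusted p = 0.0649 from limma). Of 15 genes of glutathione supply and recycling 1 fell, the cystathionine gamma-lyase Cth, which makes cysteine (9.08, 8.94 and 8.98 in siRetSat, against 9.57, 9.50 and 9.53 in siControl, log2 fold change -0.53, adjusted p = 0.0150 from limma). That call was 6.67% of the 15 genes, against 3.56% of all genes. Of these 15 genes 7 had an unadjusted p under 0.05 by limma. The study's cutoffs were passed by 4, or 26.7%, against 9.05% of all genes. All 4 were lower (4.58% of all genes), namely Cth, Chac1 (-0.51, limma adjusted p = 0.0599), Cbs (-0.36) and Oplah (-0.38). The subunits of glutamate-cysteine ligase, Gclc and Gclm, differed by -0.15 and -0.02, and the groups did not overlap in Gclc.

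Of 21 hydrolases and reductases that act beside conjugation 3 rose (14.3%, against 1.91% of all genes) and none fell at the adjusted threshold. The median over the list was 0.05. The carboxylesterase Ces2e, which hydrolyses ester drugs, had 9.74, 10.00 and 9.98 in siRetSat, against 7.99, 8.14 and 8.19 in siControl (log2 fold change 1.80, standard error 0.106, adjusted p = 0.000214 from limma), or 3.48-fold. The others were the quinone reductase Nqo1 (log2 fold change 0.95) and the lysosomal sulfatase Arsg (0.63). Past the study's cutoffs 4 of the 21 were higher and 2 lower, or 28.6%, against 9.05% of all genes. The 2 lower were the carboxylesterases Ces3b (-0.52, limma adjusted p = 0.0532) and Ces3a (-0.33, limma adjusted p = 0.267). Of 20 other conjugation enzymes 1 rose (5%, against 1.91% of all genes), the nicotinamide N-methyltransferase Nnmt. Nnmt had 8.49, 8.48 and 8.40 in siRetSat, against 7.87, 7.14 and 7.45 in siControl (log2 fold change 0.97, adjusted p = 0.0209 from limma). Past the study's cutoffs 3 of the 20 were higher and none lower, or 15%, against 9.05% of all genes. Besides Nnmt these were Glyat (0.51, limma adjusted p = 0.0626) and the dim Keg1 (0.63, limma adjusted p = 0.0658). None of 11 further glutathione transferases passed, with Gstz1 at 0.24, and none of 4 further glycosyl transferases, with Ugcg at 0.22. In these 2 lists no gene had an unadjusted p under 0.05 by limma, and by the two-tailed test of the methods 1 gene of the 11 and none of the 4 did.

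Of 13 transporters of conjugates and drugs 3 rose (23.1%, against 1.91% of all genes) and none fell at the adjusted threshold. These 3 are pumps of the canalicular membrane of hepatocytes. Past the study's cutoffs 4 of the 13 were higher and 1 lower, or 38.5%, against 9.05% of all genes. Abcb1a, a P-glycoprotein that exports drugs, had 6.08, 6.41 and 6.37 in siRetSat, against 4.77, 5.02 and 5.13 in siControl (log2 fold change 1.31, standard error 0.130, adjusted p = 0.00207 from limma). Abcc2, which exports glucuronide and glutathione conjugates into bile, had 10.68, 10.87 and 10.77 in siRetSat, against 10.26, 10.27 and 10.25 in siControl (log2 fold change 0.51, adjusted p = 0.0195 from limma). Abcg2, which exports sulfate conjugates, had 9.01, 9.09 and 9.23 in siRetSat, against 8.40, 8.55 and 8.65 in siControl (log2 fold change 0.58, adjusted p = 0.0233 from limma). In each of the 3 the groups did not overlap. Abcb11, another canalicular pump, differed by 0.06 with overlapping groups. The dim carrier Slco1a1 was lower (-0.44, limma adjusted p = 0.174) and Slc22a7 higher (0.37, limma adjusted p = 0.199), both without overlap.

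Of 19 transcription factors and cofactors of xenobiotic metabolism 1 fell and none rose. Nfe2l2, which encodes Nrf2, the activator of antioxidant and conjugation genes, had 9.77, 9.94 and 9.89 in siRetSat, against 10.26, 10.63 and 10.41 in siControl (log2 fold change -0.57, standard error 0.114, adjusted p = 0.0363 from limma). The aryl hydrocarbon receptor Ahr had 8.38, 8.18 and 8.32 in siRetSat, against 8.79, 8.73 and 8.61 in siControl (log2 fold change -0.42, adjusted p = 0.0579 from limma). The pregnane X receptor Nr1i2 differed by -0.01 with overlapping groups.

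Of the 9 calls in these lists, Ces2e and Abcb1a passed in all 6 fits that left out 1 array, with adjusted p of up to 0.00384 for Ces2e and 0.0190 for Abcb1a. Abcc2 and Abcg2 passed only without array 1 of siRetSat, with adjusted p of up to 0.105 and 0.111, and Nfe2l2 only without array 1 of siControl, with adjusted p of up to 0.146. Arsg, Cth and Nnmt passed only without array 1 of siRetSat or array 1 of siControl, with adjusted p of up to 0.0910, 0.0902 and 0.101. Nqo1 passed only without array 1 of siRetSat or array 3 of siControl, with adjusted p of up to 0.107.

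**Figure D4:**
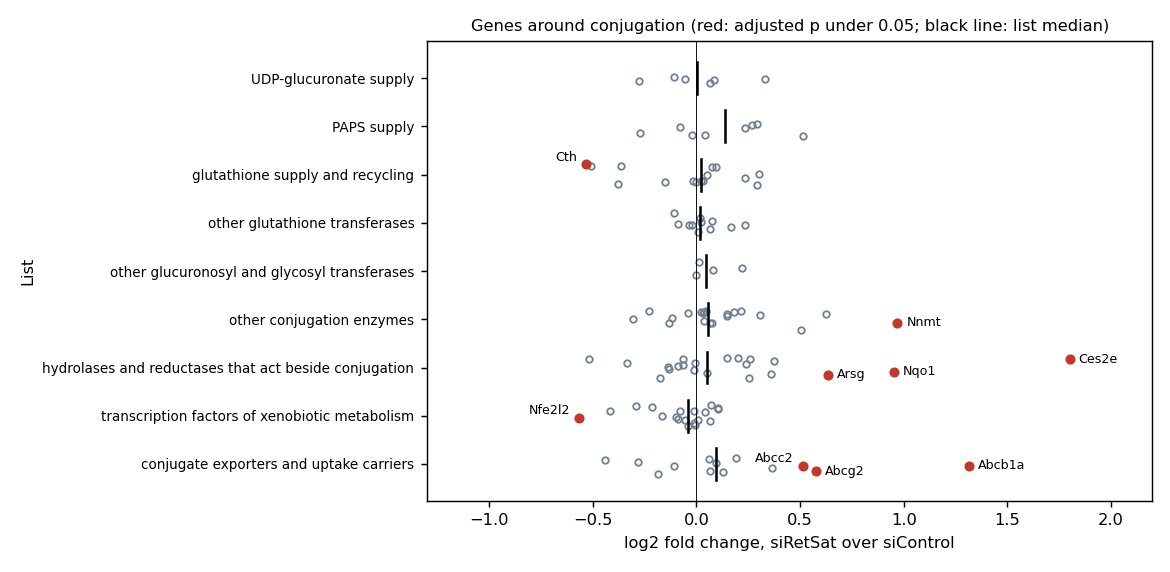
Log2 fold change, siRetSat over siControl, of the 117 measured genes of 9 lists around conjugation, one point per gene, filled where the adjusted p was under 0.05, with a line at each list's median. Of the 9 filled points 7 lie above 0 and those of Cth and Nfe2l2 below it.

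Markers of other liver cells differed between the groups as well. Over all genes 1.91% were called higher and 1.66% lower. The summed signal of 10 stellate and fibroblast markers, on the log2 scale, was 8.99 to 9.60 in siRetSat and 10.46 to 10.79 in siControl, and 2 of the 10 fell, Acta2 (log2 fold change -2.40) and Tagln (-1.46), whose signal makes up most of the siControl sum. The other 8 overlapped between the groups, 6 of them with a difference above 0 (Col1a1 0.70, Col1a2 0.29), and the median over the 10 was 0.10. The defining stellate gene Lrat was dim. For 10 macrophage markers the sum was 11.68 to 11.78 in siRetSat and 11.25 to 11.40 in siControl, with 1 of the 10 higher, Cd14 (0.59), and 7 dim, among them Adgre1, Csf1r and Vsig4. Cd68 made up most of that sum, with 11.54, 11.49 and 11.59 in siRetSat, against 11.15, 11.24 and 11.03 in siControl (0.40, limma adjusted p = 0.0563), while 5 of the 10 markers had a difference below 0 and the median was 0.03. For 6 cholangiocyte markers the sum was 8.51 to 8.60 in siRetSat and 8.45 to 8.56 in siControl, with 1 higher, Sox9 (0.45). Of these 6 markers 3 had a difference below 0, among them Krt19 (-0.20) and Krt7 (-0.21), and the median was -0.03. For 8 endothelial markers the sum was 8.10 to 8.35 in siRetSat and 7.96 to 8.19 in siControl. None of the 8 passed the adjusted threshold by limma, while 1 had an unadjusted p under 0.05 by limma and 1 by the two-tailed test of the methods. The part of these other cells in the changes of the conjugation enzymes was not tested.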

How the data were processed

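Total RNA (100 ng) of 3 siRetSat and 3 siControl transfections was amplified, biotinylated and measured on 6 Mouse Gene 1.0 ST arrays of Affymetrix. Values for 35556 probe sets were deposited by the authors as normalized intensities on the log2 scale, between 1.46 and 13.7, with RMA and Partek 6.6 named in the submitters' processing notes. RMA normalizes arrays by quantiles, so a true shift common to all genes cannot be read from these values. The array medians of the deposited values still lay between 4.29 and 4.50. The number of arrays limits the precision. The genome build is not given in the sources used here.

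Probe sets were named by GEO's platform annotation (21789 with 1 symbol, 1621 with several, 12146 with none), and symbols were updated by Entrez identifier through RefSeq GRCm38.p6, which matched 21698 and left 91 as they were. Of several probe sets of a gene the brightest was used, as for 999 genes. Of the members 1 gene, Gstm3, had a second probe set. The probe sets of several symbols were left out of the gene-level fit, 12 of them with member symbols.

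A linear model of the 2 groups without further terms was fitted in R 4.3.3 by lmFit of limma 3.58.1, moderated by eBayes, and p-values of siRetSat minus siControl were adjusted by Benjamini-Hochberg over 19938 genes with a threshold of 0.05. Intervals are 95% intervals of the same fit. The fit was tested on simulated data with independent noise on each array. Deviations shared by same-numbered arrays were therefore not covered by that test. Promoter windows and neighbour order came from RefSeq GRCm38.p6. Tables were made with Python 3.11.15 and pandas 2.3.3, plots with matplotlib 3.10.9.

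The members and lists were chosen with earlier results of these data known. Named were Retsat, Ugt2b1, Sult1a1 and Gstm1, in each family the brightest member and the 2 with the smallest p, every member past either threshold, and in each list every gene past the adjusted threshold or else the one with the smallest p. The genes named beyond that rule were chosen after their values were seen and serve to account for each family or pathway. They are the other members, Gclc, Gclm, Chac1, Cbs, Oplah, Ces3a, Ces3b, Glyat, Keg1, Abcb11, Slco1a1, Slc22a7, Ahr, Nr1i2 and some cell markers. Alternatives were the Student test of the methods, eBayes with a trend, a block for the replicate number, leaving out dim genes, repeated quantile normalization, centring on array medians, subtraction of a background, averaged probe sets of a gene, weights for arrays, a fit over every probe set, and leaving out each array. Leaving out both arrays of a replicate number was added after seeing the data.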

Additional observations from a re-analysis of the deposited data

How the results depend on the processing

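Against 6 members called (5 higher, 1 lower), 710 of all genes and 9 pathway genes by limma, the methods' t-test with Benjamini-Hochberg adjustment called 1 member (1 higher, 0 lower), 196 genes and 2 pathway genes, and at the methods' threshold of an unadjusted p and a fold 10 members (7 higher, 3 lower). Median centring called 3 members (3 higher, 0 lower), 342 genes and 4 pathway genes. Background subtraction called 2 members (2 higher, 0 lower), 445 genes and 4 pathway genes, and a test of all probe sets 3 members (3 higher, 0 lower), 329 probe sets and 3 pathway genes. In these 4 settings 3 to 5 members were lower at an unadjusted p under 0.05. More were called with a variance trend, 11 members (8 higher, 3 lower), 1078 genes and 16 pathway genes, and with array weights, 16 members (11 higher, 5 lower), 2905 genes and 35 pathway genes. Leaving out dim genes gave 9 members (7 higher, 2 lower) and 15 pathway genes, and quantile normalization again 9 members (7 higher, 2 lower). Averaged probe sets gave 6 members. Over these 9 settings and the block below, Gstt3 passed in 10, Sult1c2 in 9, Sult1d1 in 8, and Ugt2b1, Gstt2 and Gstm6 in 6. The causes were not tested.

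With 1 array left out, 2 to 6 members were called (2 to 6 higher, 0 to 1 lower, with 4 to 6 lower at an unadjusted p under 0.05), 207 to 646 genes and 2 to 12 pathway genes, with the fewest genes without array 2 of siControl and 2 members each without array 2 of siRetSat, array 2 of siControl or array 3 of siControl. Leaving out both arrays of a number was chosen after seeing the data. Without both arrays numbered 1, 8 members (5 higher, 3 lower), 822 genes and 12 pathway genes were called. Without both numbered 2 it was 0 members by limma (0 higher, 0 lower), with 10 at an unadjusted p under 0.05, 15 genes and 1 pathway gene, and without both numbered 3 it was 0 members (0 higher, 0 lower), with 12 at an unadjusted p under 0.05, 111 genes and 2 pathway genes. These fits hold 2 arrays a group.

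With the replicate number as a block, 13 members (8 higher, 5 lower), 1541 genes and 19 pathway genes were called. The 7 further members were Ugt2b36 (adjusted p = 0.00534), Ugt2b35 (0.00545), Ugt2b5 (0.00656), Ugt2b38 (0.0139), Gstm7 (0.00703), Gstm4 (0.0403) and Ugt3a2 (0.0435). The deviations of same-numbered arrays correlated at 0.547 for number 1, 0.0398 for number 2 and 0.541 for number 3. The labels do not say whether same-numbered arrays belong together, so the fit of the groups alone was kept as the main one.

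Signs turned in 19 members in at least 1 of these fits, 0 of which had passed the test of the 6 arrays. Ugt3a1 was at -0.0050 with quantile normalization again, and Gsto2, Mgst2 and Ugt3a1 were at -0.023, -0.075 and -0.019 with array weights. With 1 array left out, the log2 fold change ranged from -0.0050 to 0.185 for Gsto2, -0.012 to 0.048 for Mgst1, -0.088 to 0.107 for Mgst2, -0.35 to 0.018 for Sult1a1, -0.042 to 0.023 for Ugt2b34 and -0.055 to 0.14 for Ugt3a1. Without both arrays numbered 1, Gsto2, Mgst2 and Ugt3a1 were at -0.065, -0.050 and -0.085, and without both numbered 2, Gstp3, Sult1a1 and Ugt2b34 at 0.020, 0.065 and 0.050.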

Other observations

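Some conjugation enzymes are measured only by probe sets that carry several gene symbols, which entered no comparison above and were tested among all probe sets by limma with adjustment over all of them. The probe set of the Ugt1a locus, whose 8 symbols include the bilirubin enzyme Ugt1a1, had 8.24, 8.42 and 8.50 in siRetSat and 8.75, 8.89 and 8.93 in siControl (log2 fold change -0.47, unadjusted p = 0.00302, adjusted p = 0.124). Its groups did not overlap. The 4 probe sets shared by Gsta1, Gsta2 and their near copies differed by 0.18 to 0.24 (adjusted p between 0.631 and 0.758). Of 2 probe sets shared by Gstp1 and Gstp2, one had 11.12, 11.25 and 11.24 in siRetSat and 11.45, 11.33 and 11.43 in siControl, a difference of -0.20 with groups that did not overlap (adjusted p = 0.493), and the other differed by -0.19 (adjusted p = 0.514). The 2 probe sets shared by Ugt3a1 and Ugt3a2 each differed by 0.43, with groups that did not overlap (unadjusted p = 0.0237 and 0.0230, adjusted p = 0.346 and 0.340). Those of the Sult2a genes and of Ugt2a1 with Ugt2a2 had log2 values under 3 on every array. The second probe set of Gstm3 differed by 0.18 (adjusted p = 0.630), against -0.07 for the one used.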
